A study of Mus musculus with 11 samples.

Results

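The genes described here encode the receptors through which mouse macrophages bind the constant region of IgG, Fcgr1, Fcgr2b, Fcgr3 and Fcgr4, and the signalling chain Fcer1g that the activating receptors share. They were taken by name from a table of RNA-seq values that covers 12932 genes, and all 5 were in it. The libraries were made from alveolar macrophages (AMs), the macrophages of the airspace, sorted from 9-week-old mice of C57BL/6J background. Control mature AMs (mAMs, sorted as CD11b- SiglecF+) came from Rxrab fl/fl littermates without Cre (4 libraries, replicates 1 to 4). RXR-deficient mAMs came from Cd11cCre+ Rxrab fl/fl mice, in which Cre under Cd11c control deletes Rxra and Rxrb in CD11c-expressing cells (4 libraries, of which the study compared replicates 1 to 3). Immature AMs (ImmAMs, sorted as CD11b+ SiglecF+) came from Cd11cCre+ Rxrab fl/fl mice as well (3 libraries, replicates 2 to 4). All mice carried the floxed alleles, and no control group had Cre. No ImmAM library from control mice was analysed here, so in each comparison of ImmAMs with control mAMs the genotype and the stage cannot be told apart. Male and female mice were used, and the labels give no sex per library. The methods name lavage fluid as the source of the cells, while the deposited design text names digested lung.

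IgG-coated particles and immune complexes are taken up through Fc gamma receptors. FcγRI (Fcgr1), FcγRIII (Fcgr3) and FcγRIV (Fcgr4) bind IgG outside the cell and signal through the FcR gamma chain (Fcer1g), whose tail carries an immunoreceptor tyrosine-based activation motif (ITAM) that is phosphorylated by Src-family kinases and recruits Syk. FcγRIIB (Fcgr2b) needs no such chain: its own tail carries an inhibitory motif (ITIM), which recruits the lipid phosphatase SHIP-1 and restrains the activating receptors. Because the activating and the inhibitory receptors bind the same ligand, the balance between them sets the threshold at which a macrophage responds to IgG.

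The sequences that separate the inhibitory receptor from the signalling chain are the tail motifs. A stretch of coding bases around each motif, spliced and read 5′ to 3′ from GENCODE vM21 (GRCm38, minus strand), is given with the motif codons in capitals, codons 317 to 322 of Fcgr2b within chr1:170961041-170961213 and codons 65 to 79 of Fcer1g within chr1:171229868-171231010.
Fcgr2b tail, part: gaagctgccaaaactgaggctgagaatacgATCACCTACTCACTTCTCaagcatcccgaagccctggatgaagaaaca
Fcer1g tail, part: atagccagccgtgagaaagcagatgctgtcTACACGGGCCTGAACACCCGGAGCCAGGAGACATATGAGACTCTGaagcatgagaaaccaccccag

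Outside the cell the inhibitory and an activating receptor are nearly identical, which bears on how reads were assigned. Exon 4 of Fcgr2b (chr1:170966446-170966700) and exon 4 of Fcgr3 (chr1:171053939-171054193) each hold 255 bases that code for part of the IgG-binding region. They differ at 5 bases, printed in capitals.
Fcgr2b exon 4: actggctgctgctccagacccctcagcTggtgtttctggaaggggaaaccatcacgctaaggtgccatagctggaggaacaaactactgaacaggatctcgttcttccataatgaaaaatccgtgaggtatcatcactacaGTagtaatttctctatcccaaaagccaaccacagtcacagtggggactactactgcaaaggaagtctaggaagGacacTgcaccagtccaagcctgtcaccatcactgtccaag
Fcgr3 exon 4: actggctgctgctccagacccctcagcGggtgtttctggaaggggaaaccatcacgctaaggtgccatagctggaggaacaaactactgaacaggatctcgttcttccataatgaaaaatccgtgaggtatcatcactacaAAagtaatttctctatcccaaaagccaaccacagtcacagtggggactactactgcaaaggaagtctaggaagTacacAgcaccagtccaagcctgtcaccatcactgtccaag
Over the coding stretch that aligns without gaps, 509 bases, the genes differed at 18 bases (96.5% identity), with a longest identical run of 129 bases. Reads were 60 bases long, and 136 of the 1733 60-base windows of Fcgr3 transcripts (7.85%) were also found in Fcgr2b. Of 5723 windows of Fcgr2b, 201 (3.51%) were found in other genes, Fcgr3 among them. No window of Fcgr1, Fcgr4 or Fcer1g occurred in another gene. Reads from the shared windows were divided between Fcgr2b and Fcgr3 by the authors' quantification and could have been placed with the wrong gene, so their sum is given beside the single values.

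On GRCm38, 4 of the 5 genes lie on chromosome 1: Fcgr2b (170958617 to 170976547, minus strand), Fcgr4 (171018920 to 171029761, plus strand) and Fcgr3 (171051174 to 171064935, minus strand) within 106.3 kb, and Fcer1g (171229572 to 171234365, minus strand) 164.6 kb further on. Fcgr1 lies apart on chromosome 3 (96282909 to 96293969, minus strand).

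Values are CPM, read counts scaled to a common library total after TMM correction. Between 16659960 and 37873532 reads were counted per library, and each member had at least 366 reads in every library. All 5 passed the filter of 1 CPM or more in at least 3 of 10 libraries, as did 12889 genes, which were fitted together in limma with a variance trend. A gene was called at a Benjamini-Hochberg adjusted p (p-adj) under 0.05. The fit used the 10 libraries that the study compared, and RXR-deficient mAM replicate 4 is given as a value only. AM markers stood high in mAMs (Siglecf 198 to 264 CPM, Marco 281 to 377 CPM). In ImmAMs they were in part low (Siglecf 19.3 to 19.7 CPM, Marco 10.95 to 13.9 CPM) while Pparg (215 to 220 CPM) was at the mAM level. Rxra stood at 344 ± 29.0 CPM (SD, n = 4) in control mAMs, 344 ± 9.12 CPM (n = 3) in RXR-deficient mAMs and 291 ± 12.2 CPM (n = 3) in ImmAMs. Rxrb stood at 59.8 ± 9.29, 46.1 ± 6.79 and 33.5 ± 1.64 CPM in the same groups. The first comparison passed the test for neither gene (limma p-adj = 0.993 and 0.0972). These totals count reads from all exons, so they do not check the deletion of the floxed ones. From separate measurements of relative mRNA, the study reported that both genes were efficiently deleted in mAMs and ImmAMs of this Cre line.

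Across the 3 groups the receptors moved in opposite directions. In ImmAMs the inhibitory receptor Fcgr2b was 7.21-fold and the activating receptor Fcgr3 2.70-fold above control mAMs, whereas Fcgr4 was 4.78-fold and Fcgr1 1.57-fold below them, and the shared chain Fcer1g differed by 1.13-fold. In RXR-deficient mAMs only Fcgr3 and Fcgr2b passed the test, and both rose.

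**Figure D1:**
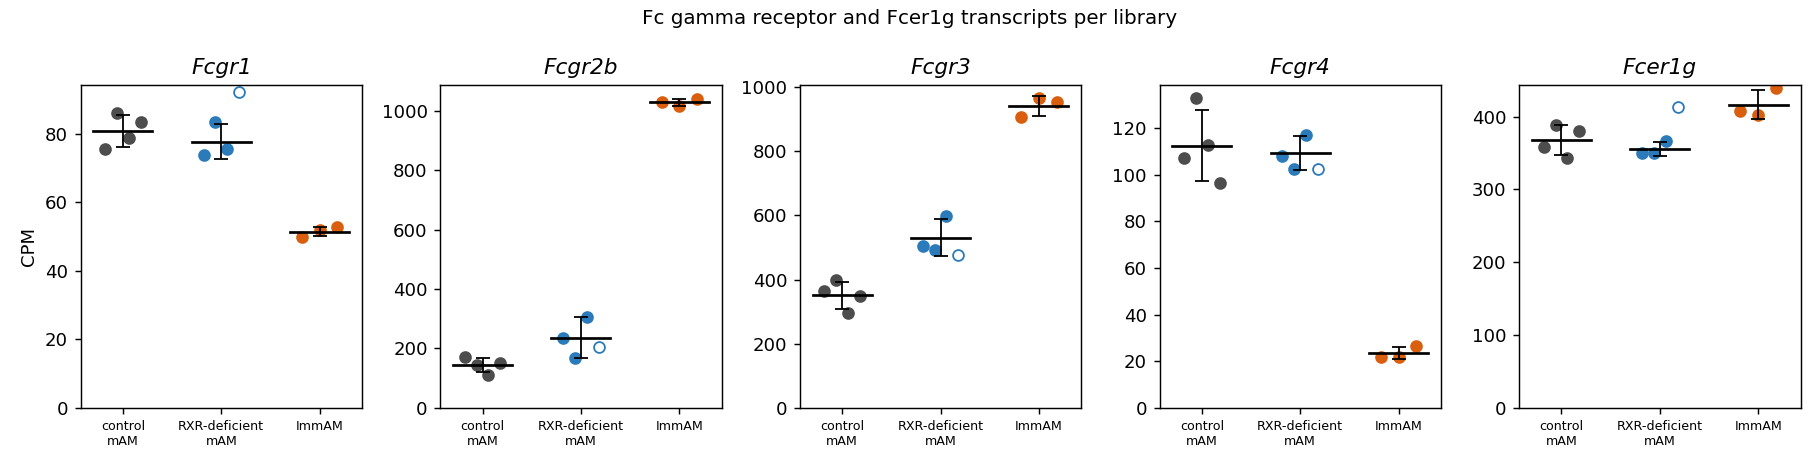
CPM of each gene (y axes, from 0) in every library of control mAMs, RXR-deficient mAMs and ImmAMs; bars give the mean and SD, and the open circle is RXR-deficient mAM replicate 4, left out of them. Fcgr2b and Fcgr3 are highest in ImmAMs and Fcgr1 and Fcgr4 lowest there, while Fcer1g stays between 344 and 439 CPM in all libraries.

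Fcgr2b, the inhibitory receptor, stood at 170, 146, 111 and 151 CPM in control mAM replicates 1 to 4, at 234, 167 and 306 CPM in RXR-deficient mAM replicates 1 to 3, and at 1030, 1017 and 1041 CPM in ImmAM replicates 2 to 4. The ImmAM libraries lay far above all others and close together, while the mAM groups overlapped, since RXR-deficient replicate 2 lay below control replicate 1. RXR-deficient replicate 4 stood at 206 CPM, inside its group. The group means were 145 ± 24.4 CPM (SD, n = 4), 236 ± 69.2 CPM (n = 3) and 1029 ± 12 CPM (n = 3).

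Fcgr3, the low-affinity activating receptor that resembles Fcgr2b outside the cell, stood at 364, 397, 294 and 348 CPM in control mAMs, at 504, 491 and 597 CPM in RXR-deficient mAMs and at 906, 965 and 953 CPM in ImmAMs. No library of a group overlapped with those of another, and RXR-deficient replicate 4 (478 CPM) also lay above all control mAMs. The group means rose from 351 ± 42.8 CPM to 531 ± 57.9 CPM and 942 ± 31.4 CPM (SD, n = 4, 3 and 3). The sum of Fcgr2b and Fcgr3, which does not depend on how shared reads were divided between them, was 495 ± 62.6, 766 ± 125 and 1971 ± 30.6 CPM.

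Fcgr4, an activating receptor for IgG2a and IgG2b, stood at 107, 133, 113 and 96.6 CPM in control mAMs, at 108, 103 and 117 CPM in RXR-deficient mAMs and at 21.8, 21.9 and 26.5 CPM in ImmAMs. The mAM groups overlapped fully, RXR-deficient replicate 4 (102 CPM) included, and every ImmAM library lay below every mAM library. Fcgr1, the high-affinity receptor that binds monomeric IgG2a, stood at 75.4, 85.9, 78.6 and 83.4 CPM, at 73.8, 83.5 and 75.5 CPM, and at 49.8, 51.8 and 52.6 CPM in the same order of groups. RXR-deficient replicate 4 had the highest Fcgr1 value of all libraries (92.1 CPM), and the ImmAM libraries were again below all others.

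Fcer1g, the ITAM-bearing chain, stood at 358, 388, 344 and 381 CPM in control mAMs, at 350, 351 and 367 CPM in RXR-deficient mAMs and at 408, 403 and 439 CPM in ImmAMs. The ImmAM libraries lay above the libraries used of both other groups by a small margin, and RXR-deficient replicate 4 (413 CPM) fell among them.

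Between genes, levels can be compared only per length. Per kilobase of the longest coding transcript, control mAMs ranked Fcer1g (538 ± 29.9 CPM per kb, SD, n = 4) over Fcgr3 (261 ± 31.8), Fcgr4 (89.5 ± 12.1), Fcgr2b (40.8 ± 6.89) and Fcgr1 (31.2 ± 1.83), and the ranges of Fcgr2b and Fcgr1 overlapped, although Fcgr2b was the higher in each of the 4 libraries. RXR-deficient mAMs (n = 3) kept this order, with Fcer1g at 521 ± 13.6, Fcgr3 at 394 ± 43.0, Fcgr4 at 87.0 ± 5.90, Fcgr2b at 66.5 ± 19.5 and Fcgr1 at 29.98 ± 1.99 CPM per kb, and here the ranges of Fcgr4 and Fcgr2b overlapped, although Fcgr4 was the higher in each of the 3 libraries. In ImmAMs (n = 3) Fcgr3 came first (699 ± 23.3 CPM per kb), before Fcer1g (610 ± 28.6) and Fcgr2b (290 ± 3.39), and Fcgr1 (19.9 ± 0.557) and Fcgr4 (18.7 ± 2.14) were last and overlapped. By this length Fcgr4 ranked over Fcgr2b in both mAM groups and last in ImmAMs. The longest coding transcript of Fcgr2b has 3544 bases, but a coding transcript of 1084 bases is also annotated. A shorter length raises the value per kb, so the place of Fcgr2b depends on the transcripts present, which were not measured. With the length taken as the union of all annotated exons, Fcgr2b (24.96 ± 4.22 CPM per kb) had a lower mean than Fcgr1 in control mAMs, and the other places in that group were the same.

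**Figure D2:**
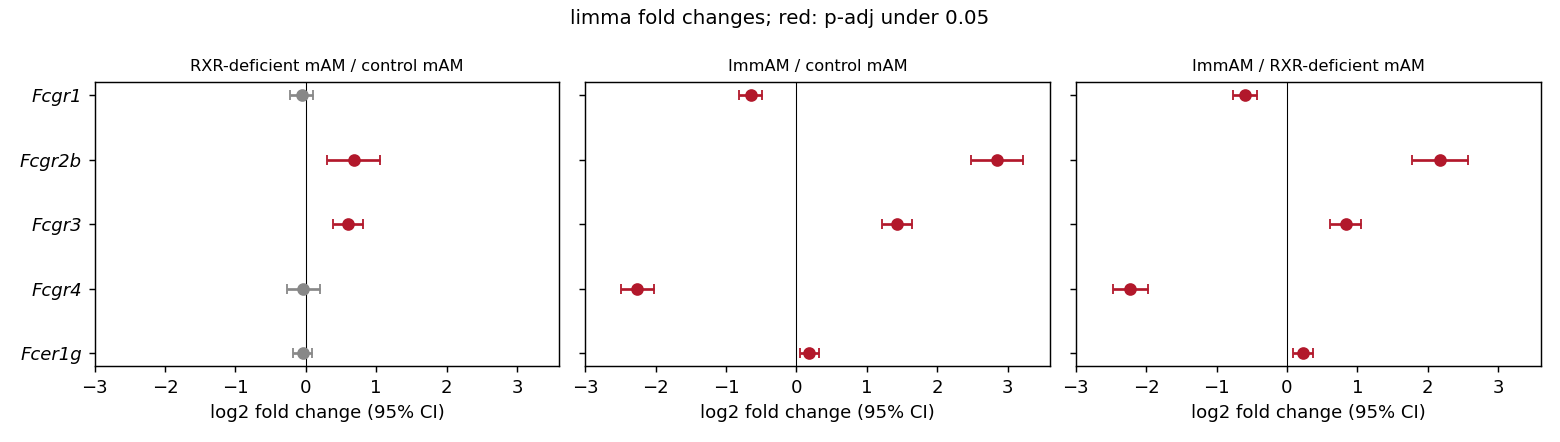
Log2 fold changes of the 5 genes from limma (x axes) with 95% confidence intervals in the 3 comparisons; red marks p-adj under 0.05. In RXR-deficient mAMs the intervals of Fcgr2b and Fcgr3 lie right of 0, and in ImmAMs those of Fcgr2b and Fcgr3 lie right of it and those of Fcgr1 and Fcgr4 left of it.

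RXR-deficient mAMs were compared with control mAMs to see which transcripts differ when the mature cells lack RXRs. Of the 5 genes, 2 were called, both higher, against 4.84% of all 12889 genes tested (2.25% called higher, 2.59% lower). Fcgr3 was the only one of the 5 whose libraries did not overlap between the groups, which held for 20.1% of all genes. Fcgr3 rose 1.52-fold (log2 0.60 ± 0.0973 SE, 95% CI 0.39 to 0.81, limma p-adj = 0.00683). Fcgr2b rose 1.60-fold (log2 0.68 ± 0.171 SE, 95% CI 0.31 to 1.05, limma p-adj = 0.0430), and the sum of both genes rose 1.54-fold (limma p-adj = 0.0113). The Fcgr2b call was lost in 8 of 10 fits that left out 1 library and kept without control replicate 1 or RXR-deficient replicate 2, with a log2 difference of 0.47 and limma p-adj = 0.155 without RXR-deficient replicate 3, whereas Fcgr3 was called in all 10. The activating receptors Fcgr1 and Fcgr4 and the chain Fcer1g had fold changes of 0.960 (95% CI 0.860 to 1.07), 0.977 (0.830 to 1.15) and 0.969 (0.882 to 1.06), with limma p-adj of 0.666, 0.882 and 0.700. For these 3 genes, changes larger than these intervals were not seen, which does not show that the levels were equal.

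RXR-deficient replicate 3 held the most Fcgr2b and Fcgr3 of its group and also the most Mmp8 and Cx3cr1, which are higher in ImmAMs. Mmp8 is a collagenase gene known from neutrophils, and the study also counts it among AM-core genes. It stood at 158, 72.3, 303 and 132 CPM in RXR-deficient replicates 1 to 4, at 21.5 to 31.2 CPM in control mAMs and at 851 to 914 CPM in ImmAMs. The chemokine receptor gene Cx3cr1 stood at 4.69, 1.51, 8.34 and 2.31 CPM in those RXR-deficient libraries. The 4 libraries ranked in the same order for Fcgr2b, Mmp8 and Cx3cr1, which were picked after their values were seen. C1qa and Fn1, also higher in ImmAMs, ranked otherwise, lowest in replicate 1 and highest in replicate 4. The 7 measured interstitial macrophage markers summed to 4.27 to 13.4 CPM in RXR-deficient mAMs, 1.83 to 2.82 CPM in control mAMs and 311 to 339 CPM in ImmAMs. The complement genes C1qa, C1qb and C1qc, which are on that list, summed to at most 0.748 CPM in any RXR-deficient mAM library and to 85.0 to 98.7 CPM in ImmAMs. The part of these transcripts in the Fcgr2b and Fcgr3 values was not tested. The 7 measured neutrophil markers summed to 55.8 to 63.5 CPM in control mAMs, 114 to 341 CPM in RXR-deficient mAMs and 904 to 977 CPM in ImmAMs. Mmp8 made up most of the sum in RXR-deficient mAMs and in ImmAMs. Of them, S100a8 stood at 2.77 to 6.27 CPM in control mAMs, 3.32 to 7.27 CPM in RXR-deficient mAMs and 10.7 to 16.6 CPM in ImmAMs, and Csf3r at 16.1 to 36.2 CPM in all libraries. Ly6g and Camp were not in the table, and none of the markers listed for T cells, NK cells, or mast cells and basophils was in it.

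ImmAMs were compared with control mAMs to describe the immature stage. All 5 genes were called, 3 higher and 2 lower, where 48.1% of all genes were called (22.8% higher, 25.3% lower), and none overlapped between the groups, as for 51.3% of all genes. The sizes were uneven. Fcgr2b rose 7.21-fold (log2 2.85 ± 0.171 SE, 95% CI 2.48 to 3.22, limma p-adj = 2.77e-08), more than Fcgr3 at 2.70-fold (log2 1.43 ± 0.0973 SE, 1.22 to 1.64, limma p-adj = 8.84e-08). Their sum rose 4.003-fold (limma p-adj = 1.69e-08). Fcgr4 fell 4.78-fold (log2 -2.26 ± 0.109 SE, -2.49 to -2.02, limma p-adj = 3.92e-09) and Fcgr1 1.57-fold (log2 -0.65 ± 0.0734 SE, -0.81 to -0.49, limma p-adj = 9.72e-06). The signalling chain Fcer1g rose 1.13-fold (log2 0.18 ± 0.0627 SE, 0.04 to 0.32, limma p-adj = 0.0303). That call was lost without control replicate 1 or 3 or ImmAM replicate 2 or 4 (limma p-adj up to 0.138, without ImmAM replicate 4) and with all 11 libraries (p-adj = 0.0656), while those of the 4 receptors were kept in each.

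The 7 measured monocyte markers moved in different directions in ImmAMs. Fn1 stood at 6512 to 7168 CPM against 1474 to 2142 CPM in control mAMs and made up most of the list's sum (6698 to 7354 against 1615 to 2284 CPM), and Ccr2 stood at 79.0 to 86.4 CPM against 8.91 to 14.04 CPM. Treml4 was lower (2.85 to 3.49 against 39.8 to 50.7 CPM), as was Nr4a1 (7.12 to 8.17 against 11.8 to 16.0 CPM), and the Vcan ranges overlapped (1.76 to 3.23 and 1.89 to 3.16 CPM). Mitochondrially encoded genes took 3.03 to 3.58% of reads against 1.63 to 2.51%. In sorted bulk RNA, a changed share of another cell type and a changed level per cell cannot be told apart.

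ImmAMs and RXR-deficient mAMs share the Cd11cCre+ Rxrab fl/fl genotype and differ in stage. Again all 5 genes were called (background 37.9%, of which 17.7% of genes higher and 20.2% lower) and none overlapped (51.2% of all genes), each in the same direction as against control mAMs. The inhibitory Fcgr2b was 4.50-fold higher in ImmAMs (log2 2.17 ± 0.183 SE, limma p-adj = 1.15e-06). The activating Fcgr3 was 1.78-fold higher (log2 0.83 ± 0.104 SE, limma p-adj = 3.73e-05), Fcgr4 4.67-fold lower (log2 -2.22 ± 0.116 SE, limma p-adj = 1.57e-08) and Fcgr1 1.51-fold lower (log2 -0.59 ± 0.0784 SE, limma p-adj = 6.07e-05). Fcer1g was 1.17-fold higher (limma p-adj = 0.0174), a call that was lost with RXR-deficient replicate 4 included (p-adj = 0.0892) and without RXR-deficient replicate 1 or 2 or ImmAM replicate 4 (p-adj up to 0.0812). The same libraries of ImmAMs enter both comparisons, which are therefore not independent of each other.

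The mix of receptor transcripts differed between the groups. Summed CPM of the 4 receptors was 689 ± 69.7 in control mAMs (SD, n = 4), 953 ± 129 in RXR-deficient mAMs (n = 3) and 2046 ± 33.9 in ImmAMs (n = 3). Fcgr2b made up 20.9 ± 2.45% of it in control mAMs, 24.4 ± 4.14% in RXR-deficient mAMs and 50.3 ± 0.930% in ImmAMs. Fcgr3 took the largest share in both mAM groups (50.9 ± 1.19% and 55.8 ± 2.02%) and 46.0 ± 0.917% in ImmAMs. The shares of Fcgr4 (16.4 ± 2.16%, 11.5 ± 0.747% and 1.14 ± 0.118%) and Fcgr1 (11.8 ± 1.15%, 8.27 ± 1.51% and 2.51 ± 0.0290%) were lower in each of these groups than in the one before, although the CPM of neither gene passed the test between the mAM groups. These are shares of reads, not of molecules, and long transcripts such as those of Fcgr2b weigh more in them.

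**Figure D3:**
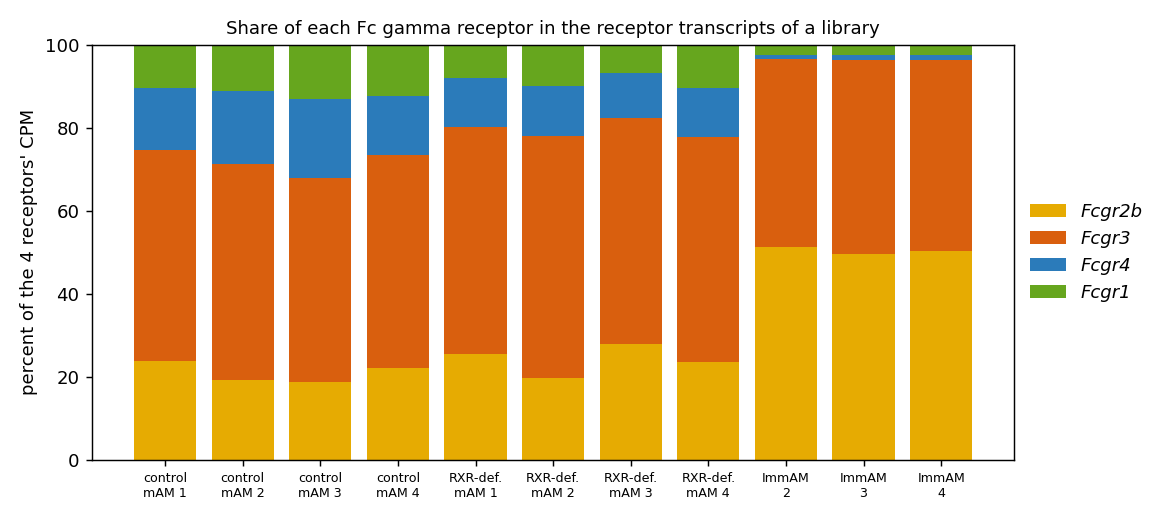
Percent of the summed CPM of the 4 receptors that each receptor took in every library. Fcgr2b takes 18.7 to 27.9% in mAM libraries and 49.5 to 51.3% in the ImmAM libraries, where Fcgr4 is down to 1.07 to 1.28%.

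The balance of activating to inhibitory transcripts was compared as ratios within a library, which need no scaling between libraries. The ratio of Fcgr3 to Fcgr2b was 2.14, 2.73, 2.64 and 2.31 in control mAMs, 2.16, 2.94 and 1.95 in RXR-deficient mAMs (2.32 in replicate 4), and 0.879, 0.949 and 0.916 in ImmAMs. Control and RXR-deficient mAMs overlapped entirely, and each ImmAM library had more Fcgr2b than Fcgr3. On the log2 scale the mAM groups differed by -0.08 (1.21 ± 0.31 against 1.29 ± 0.16, two-sided exact permutation test, p = 0.714), and ImmAMs lay 1.42 log2 units below control mAMs, at -0.13 ± 0.06.

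The ratio of Fcer1g to Fcgr2b, the ITAM chain over the ITIM receptor, was 2.10 to 3.09 in control mAMs, 1.20 to 2.10 in RXR-deficient mAMs and 0.396 to 0.422 in ImmAMs. The libraries of the mAM groups lay next to each other without overlapping. Of Fcgr4 to Fcgr2b, the ratio was 0.630 to 1.01, 0.383 to 0.613 and 0.0212 to 0.0255, and of Fcgr1 to Fcgr2b it was 0.443 to 0.705, 0.247 to 0.499 and 0.0483 to 0.0510. ImmAMs differed from control mAMs by 11.3-fold in Fcgr1 to Fcgr2b, 34.5-fold in Fcgr4 to Fcgr2b and 6.36-fold in Fcer1g to Fcgr2b, and all ImmAM libraries lay below all others in each of the 4 ratios. Over these 12 comparisons of ratios, the 4 of ImmAMs against control mAMs each gave the smallest p the exact permutation test allows with 4 against 3 libraries (p = 0.0286, adjusted p = 0.0686), and the 4 of 3 against 3 libraries could not go below p = 0.100. Between the mAM groups, exact permutation p was 0.0286 for Fcer1g to Fcgr2b, 0.0571 for Fcgr4 to Fcgr2b and 0.0857 for Fcgr1 to Fcgr2b (adjusted p = 0.0686, 0.109 and 0.109). No ratio thus passed the adjustment in the 10 libraries. With RXR-deficient replicate 4 included, 10 of 12 did, all but Fcgr3 to Fcgr2b and Fcgr1 to Fcgr2b between the mAM groups (exact permutation test, adjusted p = 0.0343 for each of the 10). That count depends on the test's floor. With 4 against 3 libraries, the exact permutation test of ImmAMs against RXR-deficient mAMs could reach p = 0.0286. ImmAMs against control mAMs passed with unchanged values (exact permutation test, p = 0.0286). Between ImmAMs and RXR-deficient mAMs the log2 differences moved little (Fcgr1 to Fcgr2b most, from -2.763 to -2.863). All 4 ratios share Fcgr2b, so they are not independent.

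**Figure D4:**
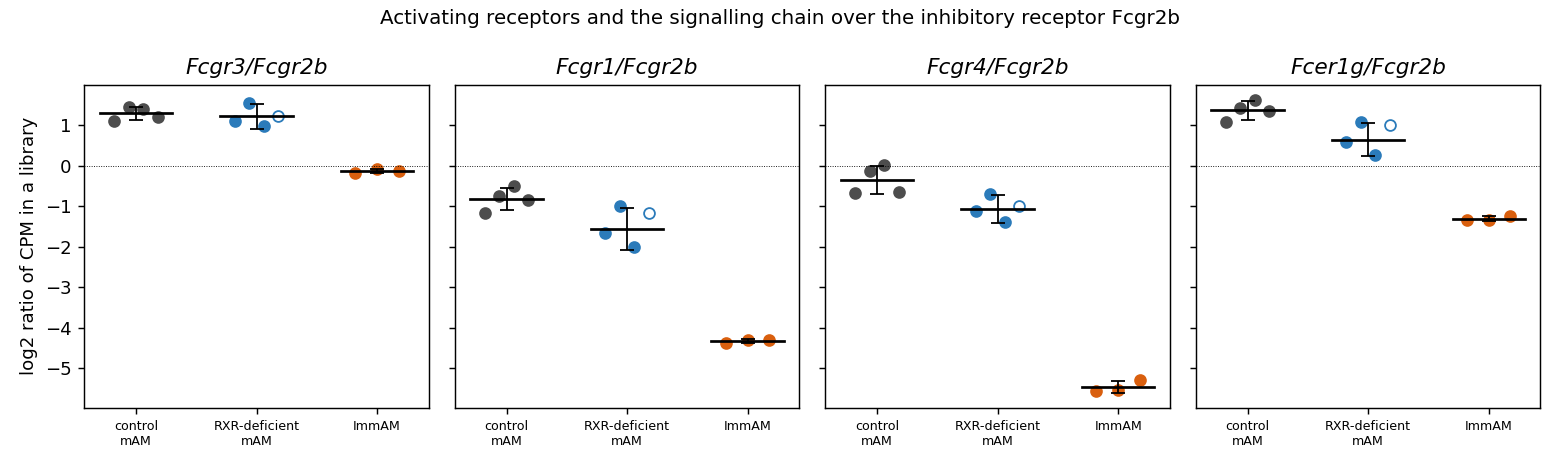
Log2 ratio, within each library, of the CPM of Fcgr3, Fcgr1, Fcgr4 and Fcer1g to that of Fcgr2b; bars give mean and SD, and the open circle is RXR-deficient mAM replicate 4, left out of them. The ImmAM libraries lie lowest in all 4 panels, and the mAM groups overlap in Fcgr3 to Fcgr2b.

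The neighbouring genes on chromosome 1 were read to place these changes in their locus. Between Fcgr2b and Fcgr3, which rose, lies Fcgr4, which fell in ImmAMs. On the Fcgr2b side, Fcrlb, an Fc receptor-like gene of low level, stood at 1.70 CPM in control mAMs, 1.05 CPM in RXR-deficient mAMs and 4.99 CPM in ImmAMs (limma p-adj = 0.00259 for ImmAMs against control mAMs), and Dusp12 and Gm9929 did not pass the test in any comparison. Between Fcgr3 and Fcer1g, Sdhc, a subunit of succinate dehydrogenase, fell in ImmAMs from 87.5 to 62.3 CPM (log2 -0.49, limma p-adj = 1.66e-04), and Cfap126 and Tomm40l did not pass. Beyond Fcer1g, B4galt3 and Ppox did not pass. None of the neighbours named here was called in RXR-deficient mAMs.

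Over the 11 libraries, the genes whose log2 CPM was most like that of each member were read among 9947 genes with a mean of 5 CPM or more. The group means set most of these correlations, so they are given as a description. Fcgr2b was most like Ptafr (r = 0.994), the receptor for platelet-activating factor, which stood at 16.5, 31.1 and 164 CPM in control mAMs, RXR-deficient mAMs and ImmAMs, and then Ldlrad4 and Pid1. Fcgr3 was most like Hepacam2 (r = 0.991), Itgb7 and Fmo5, and Fcgr4 most like Patj (r = 0.994), Ermp1 and Gmds, of which Ermp1 stood at 250, 219 and 63.0 CPM. Fcgr1 was most like Cox5a (r = 0.991), Fbxl14 and Tspan14. Fcer1g, which varied least, had a different kind of partner, the ribosomal protein genes Rpl15 (r = 0.951), Rps13 and Rpl11.

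The genes around the receptors were read from lists of known partners and effectors. Over all genes tested, the median log2 fold change against control mAMs was -0.0019 in RXR-deficient mAMs and -0.0025 in ImmAMs, and lists are read beside these and the shares called given above. Of 6 measured receptors that also pair with the FcR gamma chain, 3 rose in RXR-deficient mAMs and none fell (median log2 0.60). The C-type lectin gene Clec4d stood at 21.5 CPM in control mAMs and 36.3 CPM in RXR-deficient mAMs (log2 0.76, limma p-adj = 0.00413). Its value in RXR-deficient replicate 4, left out of that mean, was 25.82 CPM, inside the control range (18.05 to 26.04 CPM). With all 11 libraries, 3 of the 6 partners were called in RXR-deficient mAMs. Pira2 went from 151 to 273 CPM (log2 0.82, limma p-adj = 0.00783) and Lilra6 from 18.2 to 36.8 CPM (log2 0.96, limma p-adj = 0.0292). Both belong to a family of near-identical genes, so their reads may be divided uncertainly. In ImmAMs 5 of the 6 rose and Lilra5 fell (median log2 1.43), with Clec4d at 138 CPM (log2 2.70, limma p-adj = 1.13e-09) and Clec4e, the receptor Mincle, at 135 against 56.2 CPM (log2 1.31, limma p-adj = 3.42e-05). The other 2 measured adaptor chains, Tyrobp (DAP12) and Hcst (DAP10), were called in no comparison in limma or edgeR. Against control mAMs neither had an unadjusted p under 0.05 or was called in DESeq2, and between ImmAMs and RXR-deficient mAMs 1 had such a p in all 3 tools and was called in DESeq2. Tyrobp stood at 419 to 593 CPM in all libraries.

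Of 11 other genes listed as ITIM receptors, 3 rose in RXR-deficient mAMs and none fell. In ImmAMs 7 rose and 3 fell (median log2 0.19 and 0.55). Whether the mouse forms of the listed genes, Cd33 among them, carry the motif was not checked. Lilrb4a, an inhibitory receptor of myeloid cells, stood at 560, 1095 and 2391 CPM in control mAMs, RXR-deficient mAMs and ImmAMs (log2 1.01 and 2.15 against control mAMs, limma p-adj = 0.0146 and 1.13e-06). Cd33 stood at 365, 592 and 906 CPM (log2 0.71 and 1.32, limma p-adj = 0.00846 and 1.28e-06) and Cd300a at 72.8, 114 and 251 CPM (log2 0.64 and 1.80, limma p-adj = 0.0199 and 1.73e-07). RXR-deficient replicate 4, left out of these means, lay inside the control range for Lilrb4a (532.5 against 387.1 to 785.5 CPM) and Cd33 (410 against 288.6 to 445.1 CPM). For Cd300a all RXR-deficient libraries (94.1 to 140 CPM) lay above the controls (62.8 to 83.7 CPM). With all 11 libraries, 2 of these listed genes were called in RXR-deficient mAMs. Without RXR-deficient replicate 3, a choice made after the data were seen, 1 of these listed genes and 2 of the gamma chain partners were called in RXR-deficient mAMs.

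The kinases and adaptors downstream of the ITAM moved in both directions. Of 31, 2 rose and 2 fell in RXR-deficient mAMs, and 12 rose and 12 fell in ImmAMs (median log2 -0.04 and -0.0010). In RXR-deficient mAMs the Src-family kinase gene Fyn (38.8 to 25.7 CPM, log2 -0.61, limma p-adj = 0.0268) fell, and Tec and the PI3-kinase subunit Pik3ca rose. Without RXR-deficient replicate 3, 0 of the 31 were called in limma, and 9 had an unadjusted p under 0.05. In ImmAMs Syk, the kinase that binds the phosphorylated ITAM, went from 665 to 557 CPM (log2 -0.25, limma p-adj = 0.00547). The adaptor gene Lat2 had 2 to 3 reads per control mAM library, 3 to 37 per RXR-deficient mAM library and 569 to 736 per ImmAM library, and Blnk had 2 to 10, 0 to 7 and 171 to 253 reads. Src stood at 3.55 CPM in control mAMs and 19.7 CPM in ImmAMs (log2 2.52, limma p-adj = 2.85e-06), and Prkce at 1.65 and 8.16 CPM (log2 2.32, limma p-adj = 6.67e-06).

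Of 12 effectors of inhibition, 0 were called in RXR-deficient mAMs in limma and edgeR and 3 in DESeq2, with 5 at an unadjusted p under 0.05 in each tool. In ImmAMs 5 rose and 5 fell (median log2 -0.09). Inpp5d, which encodes SHIP-1, the phosphatase recruited by the Fcgr2b tail shown above, stood at 237 CPM in control mAMs and 324 CPM in ImmAMs (log2 0.45, limma p-adj = 9.46e-05). Ptpn6, which encodes the phosphatase SHP-1, fell from 416 to 291 CPM (log2 -0.52, limma p-adj = 1.60e-05), and Csk, which restrains Src-family kinases, from 216 to 134 CPM (log2 -0.69, limma p-adj = 2.12e-05).

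Of 28 genes of the phagocytic cup and its actin, 1 fell in RXR-deficient mAMs and 15 fell and 6 rose in ImmAMs (median log2 -0.07 and -0.29). Coro1a, an actin-binding protein of phagosomes, stood at 495, 373 and 253 CPM in the 3 groups (limma p-adj = 0.0122 and 2.77e-07 against control mAMs), and Arpc5, a subunit of the Arp2/3 complex, at 628, 582 and 355 CPM. The adaptor gene Fyb, which links SLP-76 to actin, stood at 1.69 CPM in control mAMs and 29.6 CPM in ImmAMs (log2 4.38, limma p-adj = 2.25e-06). Of 5 NADPH oxidase genes, Cyba fell in RXR-deficient mAMs (505 to 390 CPM, limma p-adj = 0.0215). That call was lost with RXR-deficient replicate 4 included and without replicate 3, and that of Coro1a with replicate 4 included. In ImmAMs Ncf1 and Ncf4 rose and Cyba fell (median log2 -0.07 and -0.11).

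Among 4 other measured Fc receptor genes was Fcgrt, which encodes the neonatal Fc receptor that recycles IgG. Its mean was 632 CPM in control mAMs and 508 CPM in RXR-deficient mAMs (log2 -0.32, limma p-adj = 0.0404). In ImmAMs it was 154 CPM (log2 -2.04, limma p-adj = 5.63e-10). RXR-deficient replicate 4, left out of the mean, stood at 714.8 CPM, above all control libraries (593.5 to 684.7 CPM). The call in RXR-deficient mAMs was lost when replicate 4 was included and when replicate 3 was left out. Fcrls had 0 to 3 reads in each mAM library and 23 to 39 reads in the ImmAM libraries.

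Of 13 regulators known to set Fc gamma receptor levels, 1 rose and 1 fell in RXR-deficient mAMs, and 5 rose and 6 fell in ImmAMs (median log2 0.02 and 0.08). Ifngr1, the ligand-binding chain of the interferon-gamma receptor, stood at 151, 204 and 428 CPM (log2 0.43 and 1.504 against control mAMs, limma p-adj = 0.00842 and 4.55e-09). Spi1, which encodes the myeloid transcription factor PU.1, stood at 478, 346 and 249 CPM (log2 -0.46 and -0.93, limma p-adj = 0.0157 and 1.95e-06). In RXR-deficient mAMs it was called neither with replicate 4 included nor without replicate 3. C5ar1, the C5a receptor, through which C5a is known to shift the balance of Fcgr3 and Fcgr2b in AMs, stood at 352, 355 and 121 CPM and fell in ImmAMs (log2 -1.53, limma p-adj = 3.05e-08).

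**Figure D5:**
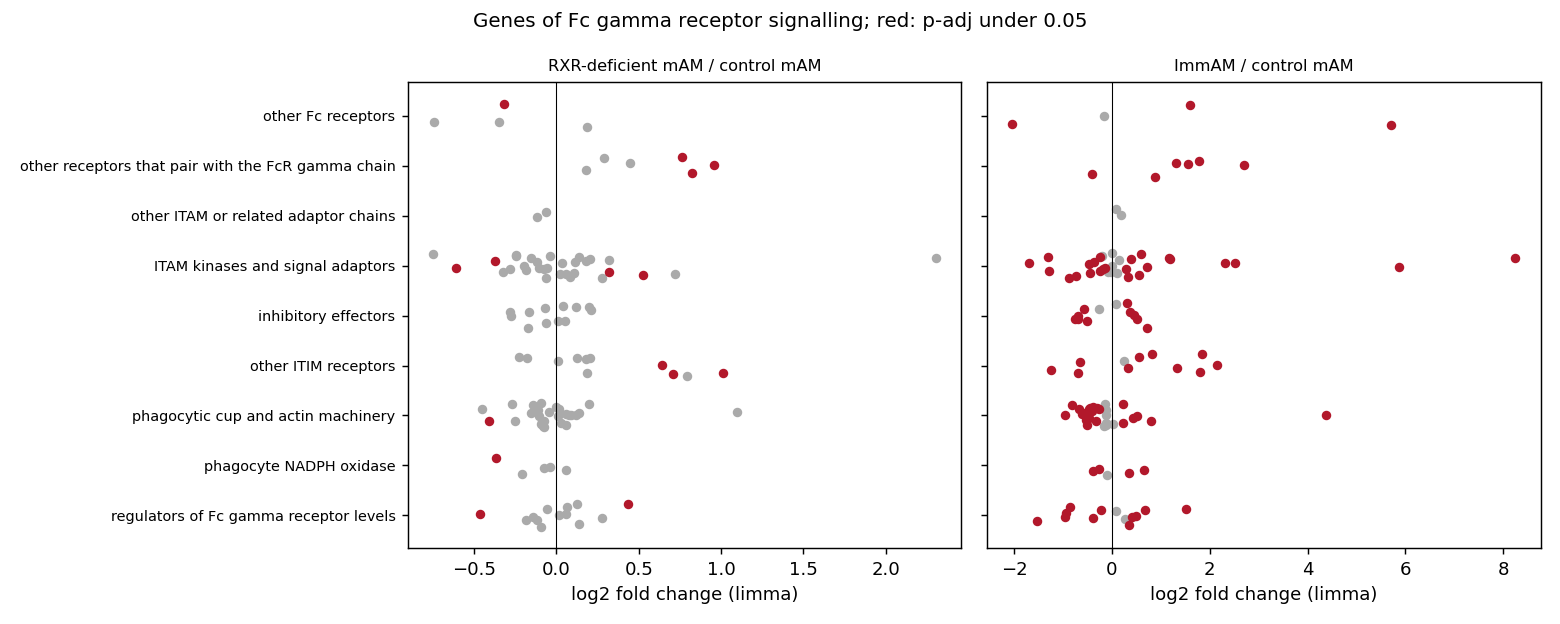
Log2 fold change from limma (x axes) of each measured gene of 9 lists around the Fc gamma receptors in RXR-deficient mAMs and ImmAMs, both against control mAMs; red marks p-adj under 0.05, and the vertical scatter within a list has no meaning. Calls are few in RXR-deficient mAMs and lie on both sides of 0 in ImmAMs; the points of Lat2, Blnk and Fcrls rest on at most 10 reads per control mAM library, so their position is not a measured size.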

How the data were processed

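Bulk RNA-seq was read for 11 libraries of sorted AMs. Per the methods and labels, the authors trimmed reads with Cutadapt, estimated counts with RSEM 1.3.1 on the GRCm38 transcriptome from a strand-specific kit, scaled them by TMM in limma and deposited CPM per library. The sources differ on the sequencer and on the source of the cells. Each deposited value was a whole read number plus 0.5, times a step per library, and 100% of values came out whole within 0.01. Groups came from the labels. The log2 of the deposited CPM, without a further pseudocount, was fitted to 3 group means with a variance trend (limma 3.58.1, R 4.3.3) over the 12889 genes that reached 1 CPM in 3 or more of the 10 libraries, with Benjamini-Hochberg adjustment. RXR-deficient mAM replicate 4 was left out, as in the study's own comparisons. On the recovered reads, the quasi-likelihood test of edgeR 4.0.16 called 566, 6094 and 4804 genes in RXR-deficient mAMs and ImmAMs against control mAMs and in ImmAMs against RXR-deficient mAMs, where limma called 624, 6194 and 4891. DESeq2 1.42.0 was also run. Ratios were compared by two-sided exact permutation tests of the difference of mean log2 ratios. Positions, exons and windows came from GENCODE vM21, in which 12919 of 12932 genes were found. Scripts were tested on simulated data. Named genes are the members, up to 4 called genes per list and comparison with the largest change and a mean of 5 CPM or more, the 3 genes most like each member, the neighbours on chromosome 1, and Rxra and Rxrb. Hcst, Syk, Inpp5d, Ptpn6, Tyrobp, Lilra5, Fcrls and the marker genes were named after their values were seen. The members, lists and tests were chosen with earlier results of these data known. A few genes that this rule selects are not reported here, and the counts of called genes include them.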

Additional observations from a re-analysis of the deposited data

How the results depend on the processing

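Of 608 values recomputed under other settings, 556 were rated as unchanged. In RXR-deficient against control mAMs these were 164 of 204. In ImmAMs they were 197 of 204 against control mAMs and 195 of 200 against RXR-deficient mAMs. For log2 differences of the members and of the sum, unchanged meant the same direction and the same side of the threshold. A gene called in neither fit could thus be rated as unchanged. Counts of called genes were rated by their size and ratios by their log2 difference, not by the threshold. Some ratios passed the adjustment only with all 11 libraries, as given above, and were still rated as unchanged. The 4 receptors in both comparisons of ImmAMs kept their direction and their side of the threshold in all 22 refits each. In RXR-deficient against control mAMs, the number of genes called was 337 with all 11 libraries, 199 with only the mAM libraries, 122 without a variance trend and 1352 in DESeq2, and 162 to 861 with 1 library left out. The log2 differences of Fcgr1 (0.0036) and Fcer1g (0.0086) turned sign with all 11 libraries. With 1 library left out, the log2 difference of Fcgr2b ranged from 0.47 to 0.90 (limma p-adj 0.00401 to 0.155) and that of Fcgr4 from -0.10 to 0.05, positive at 0.0507 without control replicate 2 and at 0.0109 without RXR-deficient replicate 2. The difference in the log2 ratio of Fcgr3 to Fcgr2b ranged from -0.25 to 0.0434, positive without RXR-deficient replicate 3. Without a variance trend, the calls of Fcgr2b (log2 0.68, limma p-adj = 0.119), Fcgr3 (0.60, p-adj = 0.0530), their sum (0.63, p-adj = 0.0608) and, in ImmAMs against control mAMs, Fcer1g (0.18, p-adj = 0.0559) were lost, as was Fcgr2b with only the mAM libraries (0.68, p-adj = 0.0902). With all 11 libraries, Fcer1g was lost in ImmAMs against control mAMs (0.18, p-adj = 0.0656) and against RXR-deficient mAMs (0.17, p-adj = 0.0892). With 1 library left out, its log2 difference ranged from 0.14 to 0.21 and from 0.19 to 0.25. The cause of these shifts was not tested.

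The labels do not say whether libraries with the same replicate number were paired. Deviations of same-numbered libraries from their group means correlated at -0.13 to 0.25. Without differently numbered pairs beside them, these values cannot decide it. With the replicate number as a block, 174 genes were called in RXR-deficient mAMs, and the block gave log2 0.69 for Fcgr2b (limma p-adj = 0.104), 0.63 for the sum (p-adj = 0.0574), and 0.17 and 0.19 for Fcer1g in ImmAMs (p-adj = 0.0861 and 0.111), and changed no other call of a member. The list counts in RXR-deficient mAMs were read again with all 11 libraries and without replicate 3, both added after the data were seen, and 9 of 18 moved by over 1.5 times. Counting depth did not limit the members (366 reads or more in each library), and 3 or 4 libraries per group limit the precision.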
